A study of Mus musculus with 12 samples.

Results

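The comparison described here set cardiac macrophages (Mφ) of mice after 28 days of isoproterenol infusion (HF, 4 libraries) against those of mice with a saline pump (Ct, 4 libraries), 8 of the 12 libraries of the series. Libraries were assigned by the group and replicate number in their titles, without the use of any measured value. All mice were adult male C57BL6/J without a genetic change, each library came from 1 mouse, and isoproterenol was given at 30 mg/kg/day from an osmotic pump. For how long each Ct mouse carried its pump is unknown here. The other 4 libraries (ECH, the same dose for 14 days) entered as values set beside those of HF. Cells were enriched for CD45, gated on CD11b and sorted as live CD14+/CD64+ cells, so differences within this gate cannot be told apart from differences in which cells the gate held. In such bulk samples, fewer cells of a type and less RNA per cell cannot be told apart either.

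Isoproterenol is an agonist of β-adrenergic receptors, which couple through Gs to cyclic AMP and protein kinase A. Sustained stimulation first thickens the heart and later dilates it, and cardiac Mφ both include long-lived resident cells and are replenished from blood monocytes. Mφ that take up dying cells and lipid are known to raise a set of genes for lipid binding, lysosomal digestion and matrix cleavage, which includes Spp1, Fabp5, Gpnmb and Lgals3. Many genes below are known for one of these roles, and their order in the text follows role.

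Libraries held 88466559 to 101190984 counts in Ct and 106276190 to 111180291 in HF, with 14489 to 15305 and 13600 to 15211 genes detected. Ct library 2 and HF library 1 stood apart, with 127 and 188 genes at 0 that each other library of the group held at 100 counts or more, against at most 7 such genes in the other libraries. From the library numbers in the labels, Ct and HF appear to fall wholly in different library sets, so within these 8 libraries the inferred set and the condition cannot be told apart. A 12-library fit with the set as a term separates them only through the ECH libraries, which appear to fall in both sets. After a filter on low counts, 13803 genes were tested with edgeR's quasi-likelihood test, on counts scaled by TMM, and levels are given as CPM, counts scaled to a common library total. CPM are not divided by gene length and are not compared between genes.

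The sorted cells held the RNA of the markers of the gate in every library. Cd14, the lipopolysaccharide co-receptor, was at 2521 ± 454 CPM (SD, n = 4) in Ct and 2096 ± 337 CPM in HF, and Fcgr1, which encodes CD64, at 119.6 ± 27.1 and 159 ± 19.5 CPM. Csf1r, the receptor for the main growth factor of Mφ, was at 4109.7 ± 1135 and 3927 ± 266 CPM, and Adgre1, which encodes F4/80, at 1036 ± 214 and 1167 ± 67.1 CPM. Itgam (CD11b) was at 371 ± 144 and 578 ± 126 CPM, and Ptprc (CD45) at 636 ± 15.7 and 625 ± 70.5 CPM. None of these 6 genes passed an FDR of 0.05 (FDR from edgeR between 0.37 and 0.953), and the ranges of Ct and HF overlapped for each of them. The phagocyte genes Cd68 (log2 fold change 0.42, edgeR FDR 0.183), Lyz2 (0.40, 0.293) and C1qa (0.21, 0.594) likewise did not pass the threshold.

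A gene was called when its FDR was under 0.05 and it changed at least 2-fold. This held for 41 of 13803 genes (0.297%), 27 higher in HF (0.196%) and 14 lower (0.101%). An FDR under 0.05 without the fold limit was reached by 54 genes (0.391%), 37 of them higher. Without adjustment, 839 genes were higher and 920 lower in HF at a p under 0.05. In all 41 called genes the 4 HF libraries lay wholly above or wholly below the 4 Ct libraries, as they did in 1318 of all 13803 genes tested (9.55%), and since the calls rest on the same values this is a description. The number of calls depended on single libraries. It was 8, 48, 94 and 13 without Ct library 1, 2, 3 or 4, and 20, 12, 5 and 16 without HF library 1, 2, 3 or 4. With Ct library 2 and HF library 1 both left out it was 33 (29 higher, 4 lower), of which 21 were among the 41. Of the 41 genes, 5 kept an FDR under 0.05 in each of the 8 fits that left out 1 library, namely Fabp5, Cfp, Adam8, Wdfy1 and Ctsd.

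**Figure D1:**
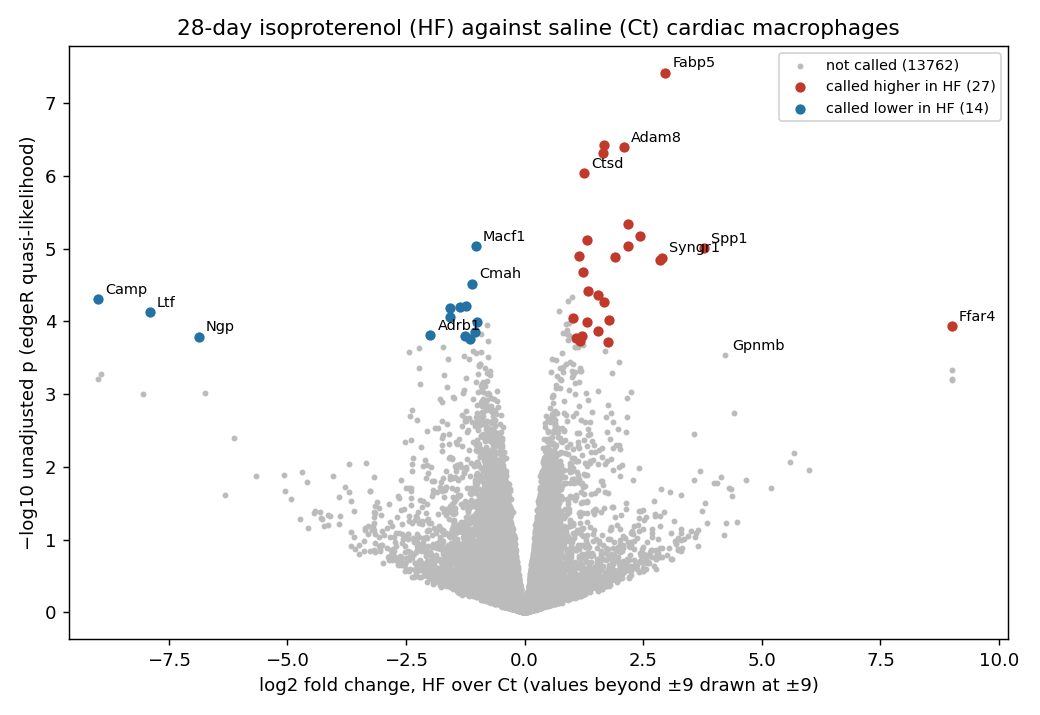
Each point is 1 of the 13803 genes tested, with the log2 fold change of HF over Ct on the x axis and −log10 of the unadjusted p from edgeR's quasi-likelihood test on the y axis. The 27 genes called higher (red) and 14 called lower (blue) lie at small p, among a few uncalled genes of less than 2-fold, and Camp and Ffar4, at 0 in all libraries of HF and Ct respectively, are among the genes drawn at the limits of the axis.

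The smallest p value belonged to Fabp5, a fatty acid-binding protein of Mφ and other lipid-handling cells (chr3:10012548-10016607, GRCm38). Ct libraries held 17, 14.6, 13.1 and 18.5 CPM and HF libraries 98.8, 99.1, 146 and 149.9 CPM, so the lowest HF mouse stood more than 5 times above the highest Ct mouse. The fold change was 7.82 (log2 2.97, SE 0.20, edgeR FDR 0.00053), and its FDR lay under 0.05 in all 18 alternative fits (highest 0.0172). Spp1, which encodes the secreted matrix protein osteopontin (chr5:104435118-104441050), varied widely among HF mice, with 64.4, 66.8, 18.6 and 45.2 CPM in Ct and 348, 485, 748 and 1099 CPM in HF. Its fold change was 13.7 (log2 3.78, SE 0.47, edgeR FDR 0.0124), and the call held in 5 of the 8 fits without 1 library. For Lgals3, the galactose-binding lectin galectin-3, the Ct libraries held 336 to 505 CPM and the HF libraries 909 to 1149 CPM, a fold change of 2.48 (edgeR FDR 0.0124).

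These 3 were the called members of a list of 14 genes of lipid-associated Mφ, all tested, of which 11 were higher in HF with a median log2 fold change of 0.21, beside −0.01 over all genes tested, of which 6816 of 13803 were higher. Without Ct library 3 this list had a median of 0.13. Gpnmb, a lysosomal glycoprotein gene of the same list singled out after its values were seen, was at 7.39, 5.16, 1.30 and 30.4 CPM in Ct and 156, 199, 247 and 226 CPM in HF. Every HF mouse was above every Ct mouse, but Ct library 4 lay far above the other Ct libraries and Gpnmb had an edgeR FDR of 0.0605 (log2 fold change 4.23, SE 0.79). Ffar4, also singled out after its values were seen, encodes a receptor for long-chain fatty acids and had no count in any Ct library and 1.05 to 1.77 CPM in HF, which is at least 183-fold higher against a floor of 3 counts over the Ct group. Its edgeR FDR was 0.0432, but the call held in only 2 of the 8 fits without 1 library, and its FDR ranged up to 0.284.

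**Figure D2:**
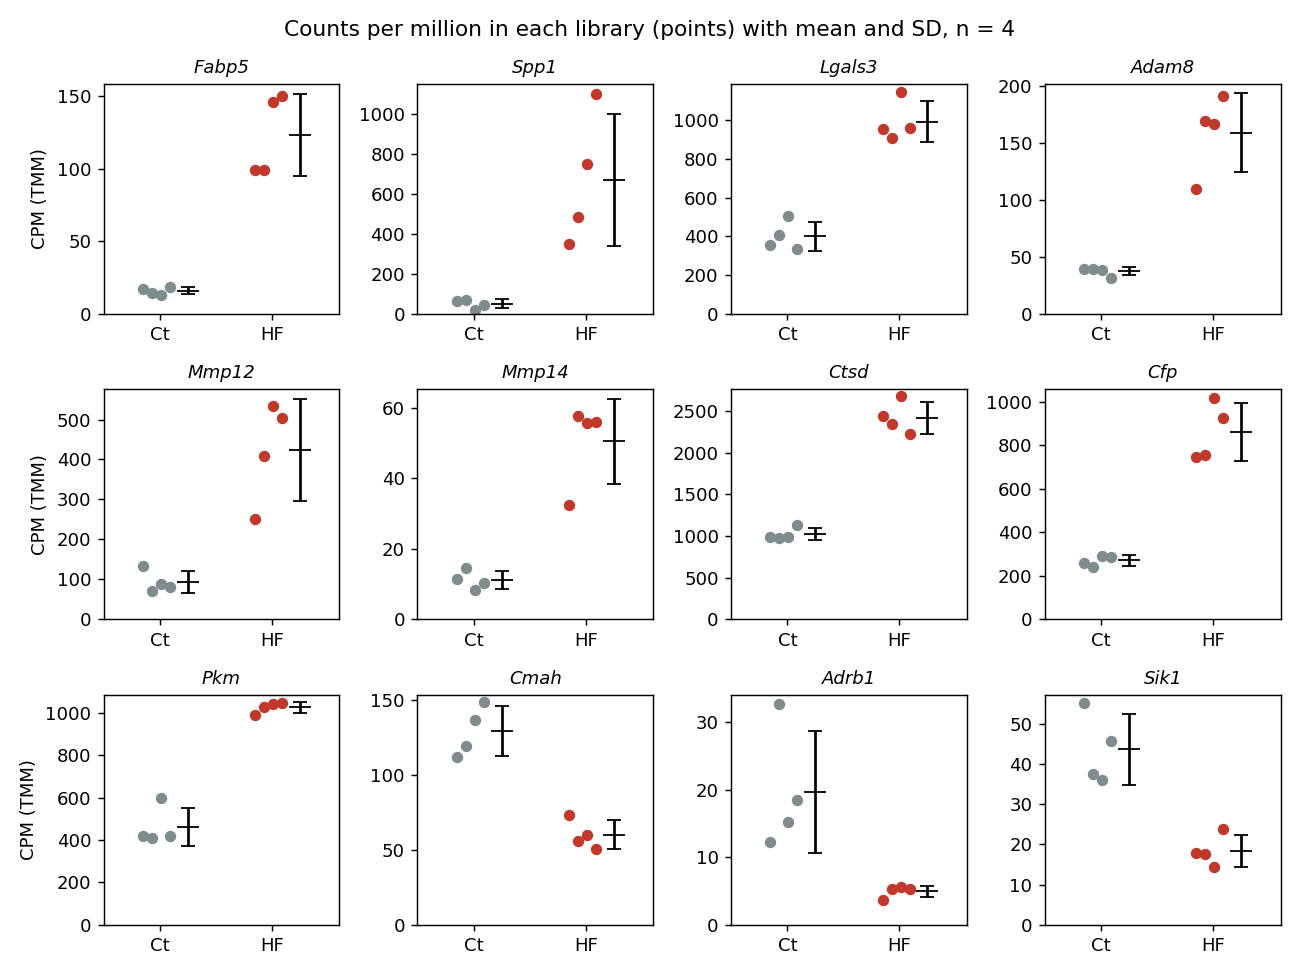
Each panel shows 1 gene, with TMM-scaled CPM on the y axis from 0, a point per library and the mean ± SD (n = 4) beside the points. HF libraries lay above all Ct libraries for Fabp5, Spp1, Lgals3, Adam8, Mmp12, Mmp14, Ctsd, Cfp and Pkm, and below all of them for Cmah, Adrb1 and Sik1.

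Proteases that act at the cell surface and on the matrix were a further group with called genes. Adam8, a membrane-anchored metalloprotease (chr7:139978932-139992562), was at 39.4, 39.6, 38.4 and 31.8 CPM in Ct and 109.7, 169.8, 167 and 192 CPM in HF. The 2 groups were far apart, with a fold change of 4.27 (log2 2.10, SE 0.18, edgeR FDR 0.00167, at most 0.0455 in the alternatives). Mmp14, the membrane-type collagenase (chr14:54431612-54445364), stood at 8.41 to 14.4 CPM in Ct, at 32.4 CPM in HF library 1 and at 55.7 to 57.8 CPM in the other HF libraries (fold change 4.53, edgeR FDR 0.0105). Mmp12, the elastase of Mφ (chr9:7344381-7369499), was at 132, 71.3, 87.8 and 81.3 CPM in Ct and 250.5, 409, 533 and 505 CPM in HF (fold change 4.56, edgeR FDR 0.0124). Of 20 tested ADAM, MMP and TIMP genes, 14 were higher with a median of 0.27, and Adam8, Mmp14 and Mmp12 were the 3 called. The median was 0.10 with 11 of 20 higher without Ct library 2, and 0.13 without HF library 2. Adam10, the general surface sheddase that, among other substrates, cleaves CX3CL1, was at 149.5 ± 41.2 CPM in Ct and 155 ± 26.1 CPM in HF (log2 fold change 0.05, edgeR FDR 0.951).

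Lysosomal genes also held called members. Ctsd, which encodes the aspartic protease cathepsin D (chr7:142375911-142388038), was at 994, 980.3, 987 and 1132 CPM in Ct and 2443, 2344, 2680.4 and 2227 CPM in HF. It was raised 2.37-fold (log2 1.24, SE 0.12, edgeR FDR 0.00256), with little spread inside either group. Atp6v0d2, a subunit of the proton pump that acidifies lysosomes, rose from 9.35 ± 2.56 to 29.8 ± 4.54 CPM (edgeR FDR 0.0322). Its call held in only 2 of the 8 fits without 1 library, with an FDR of up to 0.271 in the alternatives. Over the 36 genes of the cathepsin and lysosome list, all tested, 28 were higher in HF with a median of 0.24, 10 of them at an unadjusted p under 0.05 against 2 in the lower direction. Ctsd and Atp6v0d2 were the 2 called.

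The promoters of these genes are shown because cathepsins and other lysosomal genes are known to carry an E-box, CACGTG, that is bound by the transcription factor TFEB, while TGANTCA is the AP-1 site, at which FOS and JUN proteins bind. Sequences are the 250 bases before the start of the gene in RefSeq (GRCm38.p6), 5′ to 3′ on the strand of the gene, with matches in capitals. They stand at chr7:142387828-142388077 (minus strand) for Ctsd, chr9:7347124-7347373 (plus strand) for Mmp12 and chr5:90768268-90768517 (plus strand) for the chemokine gene Ppbp. By the GENCODE M21 positions printed above, the Mmp12 window lies inside its gene, as does most of the Ctsd window.
Ctsd: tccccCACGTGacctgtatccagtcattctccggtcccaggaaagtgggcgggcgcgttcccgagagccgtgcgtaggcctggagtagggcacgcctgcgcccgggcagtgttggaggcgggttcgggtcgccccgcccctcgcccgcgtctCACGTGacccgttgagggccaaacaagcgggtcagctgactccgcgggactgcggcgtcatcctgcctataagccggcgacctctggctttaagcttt
Mmp12: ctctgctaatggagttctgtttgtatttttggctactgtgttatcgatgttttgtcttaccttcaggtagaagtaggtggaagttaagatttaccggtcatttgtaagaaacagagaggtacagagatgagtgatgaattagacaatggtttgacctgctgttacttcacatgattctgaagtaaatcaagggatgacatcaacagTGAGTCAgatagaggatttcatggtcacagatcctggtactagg
Ppbp: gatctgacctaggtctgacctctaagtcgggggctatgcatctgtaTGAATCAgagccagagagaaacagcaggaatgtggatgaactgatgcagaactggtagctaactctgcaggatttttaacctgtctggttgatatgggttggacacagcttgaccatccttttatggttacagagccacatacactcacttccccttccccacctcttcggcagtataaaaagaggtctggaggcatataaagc
Ctsd held 2 E-boxes in this window. In the cathepsin and lysosome list, 10 of 25 genes with a RefSeq promoter (40%) held CACGTG on either strand, as did 6 of 19 immediate early genes (31.6%), described below for their lower levels in HF, beside 9.69% of the 10425 tested genes with one and 6.86% of all 27025, and in the called genes it was in 2 of 21 higher (Ctsd and Kcnn4) and 0 of 11 lower. TGANTCA, searched on both strands, was in 3 of 21 promoters of genes called higher (Mmp12, Ppbp and Ctla2a) and 1 of 11 called lower (Cp), beside 5.7% of tested genes. A match is a description of the letters and not a test of binding.

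Enzymes of glucose breakdown held 2 called genes, both higher in HF. Pkm, which makes pyruvate at the last step of glycolysis, was at 419.9, 408, 597 and 419 CPM in Ct and 992, 1030.5, 1042 and 1049 CPM in HF, with no overlap and a fold change of 2.23 (log2 1.16, SE 0.15, edgeR FDR 0.013). Pgam1, a mutase of the same pathway, rose from 149 ± 26.4 to 305 ± 47.6 CPM (fold change 2.04, edgeR FDR 0.0412). Tpi1, an isomerase named after its values were seen, passed the FDR but not the fold limit (fold change 1.83, edgeR FDR 0.0425). Without 1 library, the FDR stayed under 0.05 in 3 of the 8 fits for Pkm and in 1 for Pgam1 and Tpi1. Ct library 3 held the highest Ct value of all 3 genes. Of the 23 genes for glycolysis and glucose uptake, 20 were higher, with a median of 0.58 (0.90 without Ct library 3) and 11 at an unadjusted p under 0.05. Pfkfb3, which makes the allosteric activator of phosphofructokinase, went the other way, from 81.5 ± 11.6 to 39.8 ± 9.06 CPM, short of the threshold (log2 fold change −1.03, edgeR FDR 0.0578, named after its values were seen). Processed copies of Pgam1 and Tpi1 elsewhere in the genome make their counts uncertain.

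Among immune effectors, Cfp, which encodes properdin, the stabilizer of the alternative complement pathway (chrX:20925454-20931555), was at 260.2, 241, 291 and 287 CPM in Ct and 747, 753, 1019 and 925 CPM in HF. Its fold change was 3.19 (log2 1.67, SE 0.15, edgeR FDR 0.00167), with an FDR under 0.05 in all 18 alternatives, and it was the 1 called gene of 19 tested complement genes. Ppbp, a CXC chemokine stored in platelets and also made by monocytes, was at 16.9, 16.4, 11.9 and 8.48 CPM in Ct and 91.9, 86.7, 66.9 and 45.2 CPM in HF (fold change 5.41, edgeR FDR 0.0124). It was the 1 called gene of 25 chemokines, of which 18 were higher with a median of 0.52 (1.79 with 22 higher in a 12-library fit that added the inferred library set). Erythroid and platelet markers were a list of 11 genes, of which 3 were tested. They summed to 1367 to 2562 CPM in Ct and 2297 to 3510 CPM in HF. The 4 haemoglobin genes Hba-a1, Hba-a2, Hbb-bs and Hbb-bt were at 0 in all libraries. Ppbp is itself in this list but was a small part of the sums, and Pf4 is in both this list and the chemokine list. The part of these markers in the Ppbp result was not tested. Clec4n, which encodes Dectin-2, a receptor for fungal mannans, rose from 176 ± 38.4 to 447 ± 86.8 CPM (edgeR FDR 0.0293). Clec7a, which encodes Dectin-1, the receptor for β-glucans, fell from 303 ± 30.1 to 150.3 ± 31.4 CPM (edgeR FDR 0.0425). With 1 library left out, the FDR stayed under 0.05 in 4 of the 8 fits for Clec4n and in 2 for Clec7a. The 21 C-type lectin receptors had a median of −0.01, between −0.11 and 0.10 with 1 library left out, so Clec4n and Clec7a moved in opposite directions within a list centred near 0.

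Other genes called higher spanned several roles. Wdfy1, a phosphoinositide-binding protein of endosomes, was at 14.2 to 16.9 CPM in Ct and 48.7 to 51.4 CPM in HF, with little spread in either group (fold change 3.13, edgeR FDR 0.00167). Kcnn4, a calcium-activated potassium channel, rose from 13.9 ± 3.87 to 51.8 ± 9.68 CPM, and Syngr1, a vesicle membrane protein gene, from 2.17 ± 0.942 to 16.2 ± 1.59 CPM (both edgeR FDR 0.013). Ctla2a, which encodes a cathepsin inhibitor-like protein, was at 9.55, 22.6, 8.41 and 7.83 CPM in Ct and 119.8, 91.6, 71.9 and 67.4 CPM in HF (edgeR FDR 0.013), and it shares much sequence with its neighbour Ctla2b, so the counting could have split reads between them. On the other strand, Wdfy1 overlaps Mrpl44 and Syngr1 overlaps Rpl3. The library kit does not keep strand, which adds uncertainty to the counts of Wdfy1 and Syngr1. App, the amyloid precursor protein gene, rose from 752 ± 156 to 1760.2 ± 117 CPM (edgeR FDR 0.018). Bhlhe40, a transcriptional repressor of the clock and of cytokine genes, rose from 30.1 ± 10.3 to 87.6 ± 15.9 CPM (edgeR FDR 0.0468). The remaining 7 genes called higher fell outside the rule for named genes and were Nxpe5, Rnf128, 2010111I01Rik, Anxa1, Csrp1, Glipr2 and P4ha2. Anxa1, which encodes the pro-resolving protein annexin A1, was at 159 to 347 CPM in Ct and 546 to 588 CPM in HF (edgeR FDR 0.0468). With 1 library left out, the FDR stayed under 0.05 in 2 of the 8 fits for Bhlhe40 and in 1 for Anxa1.

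The 14 genes called lower included a receptor for isoproterenol and a gene that cyclic AMP induces. Adrb1, which encodes the β1-adrenergic receptor to which isoproterenol binds (chr19:56722199-56733113), was at 12.2, 32.6, 15.2 and 18.5 CPM in Ct and 3.73, 5.26, 5.59 and 5.24 CPM in HF. All HF mice lay below all Ct mice, with a fall of 3.96-fold (log2 −1.99, SE 0.34, edgeR FDR 0.0468), but the call held in only 2 of the 8 fits without 1 library, and its FDR ranged up to 0.167. Sik1, a kinase gene that cyclic AMP induces, fell from 43.7 ± 8.84 to 18.4 ± 3.96 CPM (log2 −1.25, SE 0.22, edgeR FDR 0.0468). The call of Sik1 also held in only 2 of those 8 fits. Over 29 tested genes of β-adrenergic and cyclic AMP signalling, 18 were lower with a median of −0.18, and Adrb1 was the 1 called. In a fit of 12 libraries that added the inferred library set, this median was 0.21, and it was −0.11 without HF library 3.

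Further genes called lower were Macf1, a crosslinker of actin and microtubules, at 123 to 164 CPM in Ct and 66.0 to 72.2 CPM in HF (log2 −1.03, edgeR FDR 0.0124), and Cmah, which hydroxylates sialic acid, at 112 to 149 and 50.8 to 73.3 CPM (log2 −1.11, edgeR FDR 0.0246). Pou2f2, a transcription factor of B cells and Mφ, fell from 61.8 ± 12.3 to 26.2 ± 3.96 CPM (edgeR FDR 0.0348). Cd40, the co-stimulatory receptor for CD40 ligand on B cells and antigen-presenting cells, fell from 43.0 ± 4.79 to 19.2 ± 4.43 CPM (edgeR FDR 0.0484). Cp, the copper-binding ferroxidase ceruloplasmin, fell from 105 ± 30.1 to 35 ± 8.85 CPM (edgeR FDR 0.0352). It overlaps Hps3 on the other strand, which adds uncertainty to its counts. Phka2, a regulatory subunit of phosphorylase kinase, fell from 99.99 ± 18.6 to 48.3 ± 7.43 CPM (edgeR FDR 0.0468). Wdr92 (150.3 ± 36.1 to 58.7 ± 11.8 CPM, edgeR FDR 0.0348) overlaps Ppp3r1 on its own strand and Pno1 on the other. Pydc3 (36.5 ± 6.08 to 12.4 ± 3.43 CPM, edgeR FDR 0.0411) belongs to a family of near-identical genes, so both are uncertain. Each of these 8 genes lost its FDR under 0.05 in at least 4 of the 8 fits that left out 1 library. In the fit with the inferred library set, the log2 fold changes of Cmah (−0.05, edgeR FDR 0.962) and Clec7a (−0.10, edgeR FDR 0.926) were near 0.

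The last 3 called genes were neutrophil granule genes. Camp, the cathelicidin gene, was at 13.1, 21.8, 4.20 and 1.58 CPM in Ct and had no count in any HF library, at least 1470-fold lower in HF against a floor of 3 counts over the HF group (edgeR FDR 0.0322). Ltf, which encodes lactoferrin, was at 17.1, 50.7, 13.4 and 10.01 CPM in Ct and 0, 0.313, 0 and 0.0625 CPM in HF (edgeR FDR 0.037). Ngp, the neutrophilic granule protein gene, was at 68.0, 75.8, 50.8 and 11.9 CPM in Ct and 0.105, 0, 0.251 and 1.40 CPM in HF (edgeR FDR 0.0468). The FDR stayed under 0.05 in 3 of the 8 fits without 1 library for Camp, in 2 for Ltf and in 1 for Ngp. All 15 tested neutrophil genes were lower in HF, with a median of −0.99. The median was −0.52 without Ct library 2, −0.63 without HF library 2, −2.30 without HF library 4, and −0.26 with 2 of 15 genes higher without both Ct library 2 and HF library 1. The summed level of the list was 469.8 to 1971 CPM in Ct, 174 to 473 CPM in 3 HF libraries and 1487 CPM in HF library 4, where S100a8, chosen after its values were seen, was at 370.1 CPM against 64.0 to 469 CPM in Ct. HF library 4 was thus within the range of Ct for S100a8 and had no Camp.

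Markers of other blood and heart cells were summed in each library, and their part in the results above was not tested. All 12 tested B cell markers were lower in HF with a median of −2.22, and 10 had an unadjusted p under 0.05. The summed B cell list was at 264 to 697 CPM in Ct and 127 to 195 CPM in HF, without overlap, and its members Cd79a (89.1 ± 61.7 against 19.1 ± 4.14 CPM, edgeR FDR 0.0709) and Fcmr (35.3 ± 16.5 against 7.54 ± 3.86 CPM, edgeR FDR 0.0543) did not pass the threshold. Of the list, 7 genes were lower at an FDR under 0.05 with DESeq2, 4 with the likelihood ratio test and 4 with limma-voom, against 0 with edgeR's quasi-likelihood test. None of the 12 was at 0 in all libraries of a group. Pou2f2 and Cd40 are also expressed by B cells. Of 19 T and NK cell markers, 17 were lower with a median of −0.97, and their sum was 52.2 to 175 CPM in Ct and 48.6 to 86.2 CPM in HF. In the fit with the inferred library set, this median was −0.02 with 9 of 19 higher, and the medians of the B cell and cardiomyocyte lists were −1.40 and −1.53. Fibroblast markers were higher in 14 of 14, with a median of 0.67. Their sums were 315 to 879 CPM in Ct and 675 to 1316 CPM in HF. Of this list, Gsn alone was at 271 to 620 CPM in Ct and 556 to 985 CPM in HF (edgeR FDR 0.303). Gsn was thus the larger part of the fibroblast sum in every library. Cardiomyocyte markers were lower in 14 of 17, with sums of 301 to 399 CPM in Ct and 274 to 317 CPM in HF. The fibroblast median was 1.30 without Ct library 4 and 0.28 without HF library 3, and the cardiomyocyte median, −0.52, was −0.22 without Ct library 2 and −0.83 without HF library 1. The sums of endothelial (631 to 1062 against 669.8 to 940.1 CPM), dendritic (282 to 423 against 314 to 421 CPM), mast, basophil and eosinophil (2.79 to 23.2 against 8.09 to 56.0 CPM) and mural cell markers (5.51 to 16.9 against 6.43 to 9.99 CPM) overlapped between the groups.

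**Figure D3:**
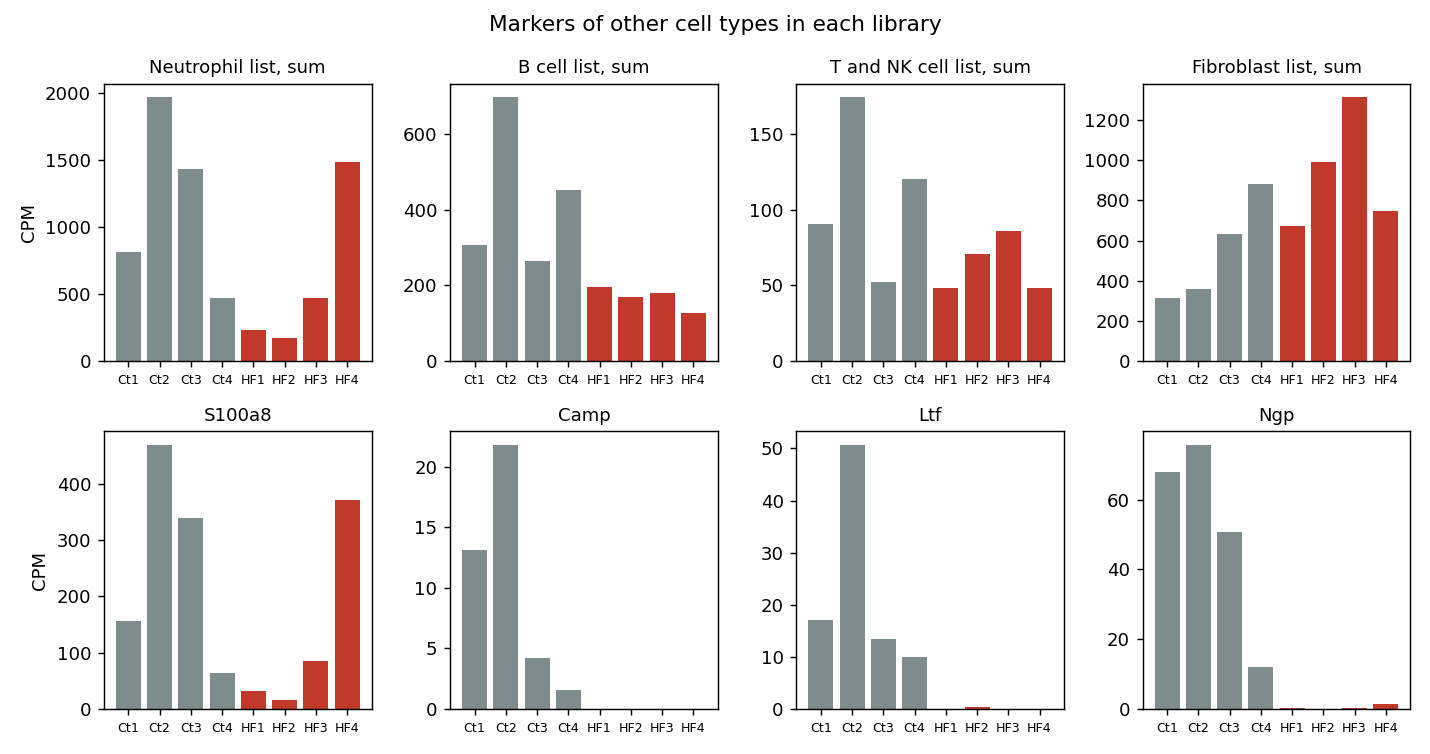
Bars give CPM in each of the 4 Ct (grey) and 4 HF (red) libraries, from 0. The top row shows the sums of 4 marker lists and the bottom row single neutrophil genes. Gsn was the larger part of each fibroblast sum. The B cell sum was lower in every HF library, while the neutrophil sum and S100a8 were high in HF library 4, in which Camp was at 0, Ltf at 0.0625 CPM and Ngp at 1.40 CPM.

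Immediate early genes, which cells induce within minutes of a stimulus and also during tissue dissociation, were mostly lower in HF. Of 24 genes, 23 were lower with a median of −0.67, and 18 had an unadjusted p under 0.05, but 0 had an FDR under 0.05 by edgeR's quasi-likelihood test, against 9 with DESeq2, 6 with the likelihood ratio test and 9 with limma-voom. Fos was at 10255, 8780.2, 9151 and 8337 CPM in Ct and 6723, 7742, 3818 and 4331 CPM in HF, so the groups did not overlap (log2 −0.69, SE 0.22, edgeR FDR 0.243). For Junb the means were 4158 ± 596 and 2453 ± 459 CPM (edgeR FDR 0.0994), for Btg2, an antiproliferative gene, 2861 ± 374 and 1561 ± 369 CPM (edgeR FDR 0.0839), and for the phosphatase gene Dusp1 6322 ± 648 and 4139 ± 1119.7 CPM (edgeR FDR 0.245). In the fit with the inferred library set, the median of the list was −0.08 and 11 of the 24 genes were higher.

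Since cyclic AMP acts on transcription through the site TGACGTCA, the promoters of this list were read for it. It was found, on either strand, in 3 of 19 immediate early genes with a RefSeq promoter (15.8%; Btg2, Dusp1 and Maff), in 3.03% of tested genes with one and in 0 of the 21 genes called higher and 0 of the 11 called lower. Its core TGACG, which lies within the full site, was in 11 of the 19, beside 29.8% of tested genes. Both sequences below come from the minus strand of GRCm38.p6, Btg2 from chr1:134079156-134079405 and Dusp1 from chr17:26508473-26508722, with the full site in capitals. By its GENCODE M21 position (chr17:26505590-26562128), the Dusp1 window lies inside the gene.
Btg2: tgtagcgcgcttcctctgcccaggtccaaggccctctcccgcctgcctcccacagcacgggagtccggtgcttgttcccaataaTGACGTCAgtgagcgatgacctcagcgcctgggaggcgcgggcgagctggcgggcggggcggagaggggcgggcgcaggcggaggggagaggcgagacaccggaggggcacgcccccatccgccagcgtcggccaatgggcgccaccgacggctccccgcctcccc
Dusp1: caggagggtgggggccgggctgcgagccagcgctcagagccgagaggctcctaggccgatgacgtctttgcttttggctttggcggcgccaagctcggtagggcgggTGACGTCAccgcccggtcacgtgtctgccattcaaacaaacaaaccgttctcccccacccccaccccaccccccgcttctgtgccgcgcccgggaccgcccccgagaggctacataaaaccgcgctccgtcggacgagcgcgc

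Glucocorticoid response genes were lower in 14 of 16 (median −0.57) and FoxO and fasting-type genes in 18 of 18 (median −0.48), with 0 of either list at an FDR under 0.05 by edgeR's quasi-likelihood test, while 7 and 5 of them were lower at an unadjusted p under 0.05. DESeq2 gave 3 lower and 1 higher glucocorticoid gene and 1 lower FoxO gene at an FDR under 0.05. In the fit with the inferred library set the medians were −1.44 and −1.09, with 3 of the 18 FoxO genes higher. Nr3c1, the glucocorticoid receptor gene, was at 274 to 325 CPM in Ct and 188 to 233 CPM in HF (edgeR FDR 0.14), and Foxo1 at 52.6 to 79.8 and 39.5 to 49.0 CPM (edgeR FDR 0.192). Sgk1, a kinase gene of the glucocorticoid list, was at 139.8 ± 20.5 CPM in Ct and 233 ± 23.9 CPM in HF (edgeR FDR 0.0709). Cytosolic ribosomal protein genes were lower in 33 of 34 (median −0.35), with 0 called, and without Ct library 2, which held 918 CPM of Rps9 against 355 to 464 CPM in the other Ct libraries, this median was −0.05 with 13 of 34 higher.

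Several lists of housekeeping and growth had medians above 0 without a called member by edgeR's quasi-likelihood test. DESeq2 put 5 cell division, 3 collagen, 1 proteasome, 1 oxidative phosphorylation and 1 sterol gene at an FDR under 0.05, limma-voom 2, 1, 3, 3 and 1, and the likelihood ratio test 4, 1, 0, 0 and 0, with 0 interferon-stimulated genes by any of the 3. Proteasome subunits were higher in 25 of 25 (median 0.34, 8 at an unadjusted p under 0.05), for example Psmc2 at 94.6 ± 14.1 CPM in Ct and 131 ± 1.32 CPM in HF (edgeR FDR 0.2). Nuclear genes of oxidative phosphorylation were higher in 32 of 34 (median 0.20, but 0.36 without Ct library 2 and 0.085 with 21 of 34 higher without Ct library 4), sterol synthesis genes in 18 of 20 (median 0.53, Cyp51 at 17.2 ± 6.97 and 37.9 ± 12.7 CPM, edgeR FDR 0.234) and type I interferon-stimulated genes in 20 of 26 (median 0.28, and 0.43, 0.13 and 0.18 without HF library 2, 3 or 4). Cell division genes were higher in 26 of 37 (median 0.47), with Mcm5, a helicase subunit for DNA replication, at 8.42 to 22.2 CPM in Ct and 34.5 to 72.9 CPM in HF (edgeR FDR 0.0986), but the median was 0.23 without Ct library 3 and −0.27 in the fit with the inferred library set. Collagen and matrix genes were higher in 18 of 20 (median 0.62). Fn1 was at 71.4 to 151 CPM in Ct and 178 to 625 CPM in HF (edgeR FDR 0.0747). Col1a1, Col1a2, Col3a1, Dcn, Lum and Postn are also in the fibroblast list, so the directions of the collagen and fibroblast lists are not independent. The collagen median was 0.39, 0.41 and 0.38 without Ct library 1, Ct library 2 (14 of 20 higher) or HF library 3, and 1.48 without Ct library 4. In the fit with the inferred library set the medians of the sterol, proteasome, interferon and oxidative phosphorylation lists were further from 0, at 1.11, 0.58, 0.54 and 0.34, as were those of the glycolysis (0.97) and lipid-associated (0.41) lists.

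**Figure D4:**
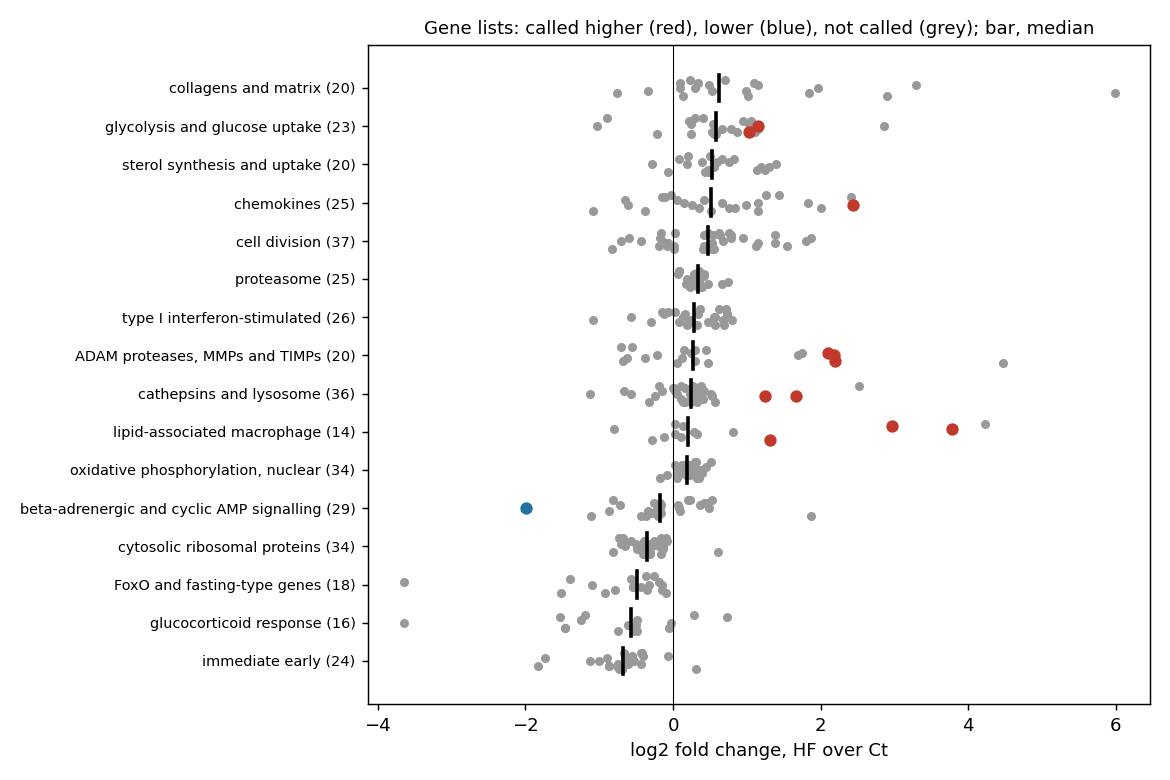
Each point is the log2 fold change of HF over Ct of 1 tested member of a gene list, with the number of members in parentheses and a bar at the median. Among the lists drawn, which leave out those of other cell types and some others, medians ran from −0.67 for immediate early genes to 0.62 for collagens and matrix. Called members (red for higher, blue for lower) were few in any list drawn.

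Lists on the origin and polarization of Mφ were mixed in direction. In the fit with the inferred library set, the recruited monocyte, resident and alternative activation lists had medians of 0.29, −0.04 and 0.38. Recruited monocyte genes were higher in 10 of 20 (median 0.10, between −0.09 and 0.25 with 1 library left out), with Ccr2, the receptor by which monocytes enter tissue, at 317 ± 121 CPM in Ct and 594 ± 133 CPM in HF (edgeR FDR 0.215). Resident cardiac Mφ genes were lower in 11 of 17 (median −0.20, and −0.09, −0.06 and −0.08 without Ct library 2, 3 or 4), with Timd4, a receptor for phosphatidylserine, at 111 to 227 CPM in Ct and 65.4 to 100.5 CPM in HF (log2 −0.92, edgeR FDR 0.141). Alternative activation genes had a median of 0.03 (between −0.08 and 0.10 with 1 library left out), with Clec7a called lower, and Clec10a, another lectin of that list named after its values were seen, passed the FDR at less than 2-fold (162 ± 20.4 against 85.9 ± 14.9 CPM, edgeR FDR 0.0468). Among genes that the study follows, Mertk was at 117 ± 43.8 and 117 ± 22.6 CPM (log2 0.01, edgeR FDR 0.995), Il4ra at 189 ± 60.8 and 267 ± 54.3 CPM (edgeR FDR 0.405) and Cd163 at 1134 ± 237 and 937 ± 199.6 CPM (edgeR FDR 0.598). Cx3cl1 was at 1.92, 0, 1.18 and 1.24 CPM in Ct. In HF it was at 6.44, 3.56, 5.33 and 7.88 CPM (log2 2.42, SE 1.09, edgeR FDR 0.394). Its receptor gene Cx3cr1 was at 204 ± 32.4 and 154 ± 16.5 CPM (log2 −0.41, edgeR FDR 0.307). With the inferred library set in the fit, Cx3cr1 went the other way, at 1.81 in log2 (edgeR FDR 0.0493). Among cytokines, Il6 was at 9.66 to 62.6 CPM in Ct and 6.84 to 13.03 CPM in HF (edgeR FDR 0.193), and the antagonist gene Il1rn at 34.4 to 123 and 173 to 212 CPM (edgeR FDR 0.196).

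Against the 14-day group, none of the 41 called genes reached an FDR under 0.05 in HF (edgeR FDR of HF against ECH 0.491 to 0.999, in a fit of all 12 libraries), while 15 of them (36.6%) had an unadjusted p under 0.05. Of all 14608 genes in this fit, 0 reached an FDR under 0.05 (smallest 0.338) and 1165 (7.98%) had an unadjusted p under 0.05. The called genes were chosen with the same HF libraries, so nothing is read from the difference between these shares. Fabp5 was at 64.5, 137, 158 and 78.1 CPM in ECH, around the range of HF, and Spp1 at 292, 948, 1122 and 328 CPM. Adam8 was at 266, 206, 414 and 229 CPM, all above the 4 HF values, a difference of HF from ECH of −0.80 in log2 (SE 0.22, edgeR FDR 0.491). Ppbp was at 45.2, 67.5, 7.78 and 5.93 CPM, so ECH mice 3 and 4 were below the range of Ct and ECH mice 1 and 2 above it. For Adrb1 the ECH libraries held 7.76, 6.20, 7.75 and 9.01 CPM, between Ct and HF, and for Camp 2.30, 0.0194, 0 and 12.2 CPM. ECH and HF were both compared with the same Ct libraries.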

How the data were processed

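RNA of sorted CD14+/CD64+ cardiac macrophages was amplified with SMART-Seq v4, a kit for low input that does not keep strand, and sequenced in pairs of reads. Per the labels, the authors used FastQC, Trimmomatic, TopHat2 and featureCounts on mm10 (GRCm38) and deposited whole-number counts per gene symbol (24445), without normalization. Versions and the strand setting were not given in the sources used here. In every library more genes held 2 counts than held 1 or 3, so both reads of a pair may have been counted.

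Here the deposited counts of 8 libraries were filtered with filterByExpr, scaled by TMM and fitted with edgeR 4.0.16 (R 4.3.3) by the quasi-likelihood test, with Benjamini-Hochberg adjustment over 13803 genes and a biological coefficient of variation of 60.1%. The SE was taken as the log2 fold change over the square root of F. P values measure the spread between 4 mice per group. A floor of 3 counts was used for groups at 0, and it covers counting error only. Named were the 15 called genes of smallest p per direction (14 lower), of each list described its called members or else those of smallest p or highest CPM, and markers that the study names, of which some items are not reported here. Genes named outside this rule are said to be chosen after their values were seen. The members and lists were chosen with earlier results of these data known. Same-numbered Ct and HF libraries were not paired (r of their deviations −0.08 to 0.05), and no pair of libraries agreed within sampling noise. Alternatives were DESeq2 1.42.0, limma 3.58.1 (voom with quality weights), edgeR's likelihood ratio test, RLE scaling, other filters and thresholds, a replicate block, all 12 libraries with and without the inferred library set, and each library left out. Positions are from GENCODE M21 and promoters from RefSeq. The code was tested on simulated data. Figures were drawn with matplotlib 3.10.9.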

Additional observations from a re-analysis of the deposited data

Results flagged for a closer look

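A library was marked when its gap to the nearest of the 4 in its group exceeded Dixon's 95% critical share of the group's range. Chance marks about 1 in 20 groups, and 10 of 198 groups of the named genes were marked. Ct library 3 was marked as high for 4 genes, Pkm (597 CPM against 408 to 419.9 in the others), Pgam1 (188 against 133 to 142), Tpi1 (195 against 144 to 151) and Nxpe5 (33.9 against 19.97 to 21.6). Ct library 4 was low for Adam8 (31.8 against 38.4 to 39.6) and high for Ctsd (1132 against 980.3 to 994). Ct library 2 was high for Ctla2a (22.6 against 7.83 to 9.55), and Ct library 1 low for Gpt2, a gene chosen after its values were seen (23.7 against 27.7 to 28.5). HF library 1 was low for Mmp14 (32.4 against 55.7 to 57.8) and high for Fcmr, a B cell gene (13.3 against 5.28 to 6.09).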

How the results depend on the processing

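The main test called 41 genes, with 54 at an FDR under 0.05. The corresponding numbers were 312 and 686 with DESeq2, 170 and 321 with edgeR's likelihood ratio test, 174 and 508 with limma-voom, and 208 and 220 in the 12-library fit with the inferred library set. An FDR under 0.10 gave 86 called genes. With the replicate number as a block, which does not pair the mice, 10 genes were called and 10 had an FDR under 0.05. Leaving out 1 library gave 5 to 94 called genes and 5 to 136 at an FDR under 0.05, with more than the main test only without Ct library 2 (48) or Ct library 3 (94). RLE scaling, all 12 libraries, both other filters and a 1.5-fold limit stayed within 1.5 times of the main count. Of the 41 genes, all were called with DESeq2 and the likelihood ratio test, 37 with limma-voom, 40 with RLE scaling, 29 with all 12 libraries, 28 with the library set and 9 with the block. No called gene changed direction in any alternative.

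Of genes not called, Mertk, at 0.01 in log2, was at −0.0010 with all 12 libraries, −0.0029 with RLE, −8.45e-05 with DESeq2, −0.14 with limma-voom, −0.0065 with the CPM filter, −1.35 with the library set, −0.13 without Ct library 2 and HF library 1, and ran from −0.16 to 0.28 with 1 library left out, below 0 without Ct library 2 or 3 or HF library 2 or 4. Ptprc, at −0.03, was at 0.00038 with limma-voom, 0.38 with the library set, 0.0024 without both libraries, and from −0.10 to 0.026 with 1 library left out, above 0 without HF library 1 or 2. Csf1r was at 0.087 with the library set and ran from −0.24 to 0.078 with 1 library left out, above 0 without Ct library 4. Adam10 was at −0.62 with the library set and −0.11 and −0.02 without Ct library 2 or HF library 3. With the library set, Cx3cr1 was at 1.81 (edgeR FDR 0.0493) and Timd4 at 0.20. The cause of these changes was not tested.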
